A study of Mus musculus with 2 samples.

Results

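Imprinted genes are expressed mainly from the copy inherited from 1 parent. A list of 38 imprinted mouse genes was followed here on 2 arrays, and 37 of them were found by matching the accession that the array design gives a probe to a RefSeq gene. The exception was H19, a noncoding RNA, whose accessions matched no probe. The 37 genes stand among 20654 named genes on the arrays and have 61 probes and 79 spots. Of these genes, 23 were well above background on both arrays, 14 on neither, and 0 on 1 array only. Of all 20654 named genes, 13479 were well above background on both arrays.

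Imprints are marks of DNA methylation laid down in the egg or the sperm at short regions rich in CpG dinucleotides and copied through cell divisions in the body. Dnmt3a, the gene knocked out here, encodes a de novo DNA methyltransferase that with its partner Dnmt3l sets these marks in germ cells, and Dnmt1 copies them afterwards. Many imprinted genes act on fetal and placental growth, paternally expressed ones often promoting it and maternally expressed ones often restraining it.

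RNA came from osteoclasts, the multinucleated cells that resorb bone, grown from nonadherent marrow cells of female C57BL/6 mice. These were kept with M-CSF, a macrophage growth factor, to give adherent precursors, then with RANKL and M-CSF. The Dnmt3a knockout group and the wild type group each have 1 array. The allele, any Cre driver, the deleted part of Dnmt3a, the age of the mice and the number pooled are not given in the sources used here.

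Neither genotype was replicated, and so no p-value can be given. Differences are log2 of knockout over wild type after scaling each array to its 75th percentile. The error beside a difference, called scanner error here, is the imaging software's own error of the spots carried to log2. It stands for the reading of a spot and not for the spread between mice or cultures. For bright probes with 1 spot it was nearly constant, 0.20 for both Gnas and Csf1r. There it acts as a fixed allowance and not as a measured spread. The median SD between repeated spots was 0.07. A gene was counted as higher or lower at a 1.5-fold difference, a threshold chosen with earlier results of these data known. The probe of Dnmt3a read 1822 on the knockout array and 7042 on the wild type array, a difference of -1.92 (scanner error 0.20). The array does not tell the parental copies apart, and in RNA of a whole culture fewer cells of a type and less RNA per cell cannot be told apart.

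The arrays differed in cell type markers, as the differences of the measured genes show. Sums of their signals are given beside them. The sums are unscaled and rest largely on the brightest probes, such as Acp5 with 442434 and Csf1r with 332857 in the knockout. All 10 osteoclast markers were measured, and all 10 lay below 0, between -0.84 for Calcr and -0.00 for Acp5, with sums of 983321 in the knockout and 1149432 in the wild type. The 11 measured macrophage markers lay between 0.10 for Csf1r and 1.47 for Marco, with sums of 556392 in the knockout and 455318 in the wild type. Of 18 stromal and osteoblast markers 16 were measured and 13 lay below 0, between -0.98 for Cxcl12 and 0.84 for Bglap2, with sums of 112620 in the knockout and 167178 in the wild type. The other 2, Runx2 and Lum, named here after their values were seen, were above background on neither array. The neutrophil, lymphocyte and erythroid lists had medians of 0.47, 0.17 and -0.37, their extreme members being Mmp8 at 1.08 and Csf3r at 0.02, Cd2 at 0.72 and Ebf1 at -0.72, and Epor at 0.33 and Hbb-b2 at -0.73. The part of these shifts in the values of the imprinted genes was not tested.

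The 23 measured imprinted genes had a median difference of 0.01, the same as the median over all 13479 measured genes. Their SD across genes was 0.38, against 0.37 for all genes, and 11 of the 23 lay below 0 (47.8%, against 48.1% of all genes). At 1.5-fold, 2 of the 23 were higher in the knockout, Ascl2 and Inpp5f, where 5.82% of all genes were. In the other direction 2 of the 23 were lower, Sgce and Plagl1, where 4.69% of all genes were. At 2-fold, 0 of the 23 were higher and 0 were lower, where 0.824% and 0.727% of all genes were. The differences of 12 of the 23 genes (52.2%) were smaller than their scanner error, as were those of 54.4% of all genes. The spread and the counts of the imprinted genes were thus near those of the genes at large. Of the 23, 17 lay below the median signal level of all measured genes, and shares among genes of like level were not worked out.

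Scaling by spike-in probes, whose RNA is meant to enter each labelling in equal amount, moved the median of all genes to -0.51 and that of the imprinted genes to -0.52. Differences in this text are therefore relative to the bulk of the genes on the array. Of the 23 measured imprinted genes, only Ascl2 and Inpp5f stayed above 0 under spike-in scaling.

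**Figure D1:**
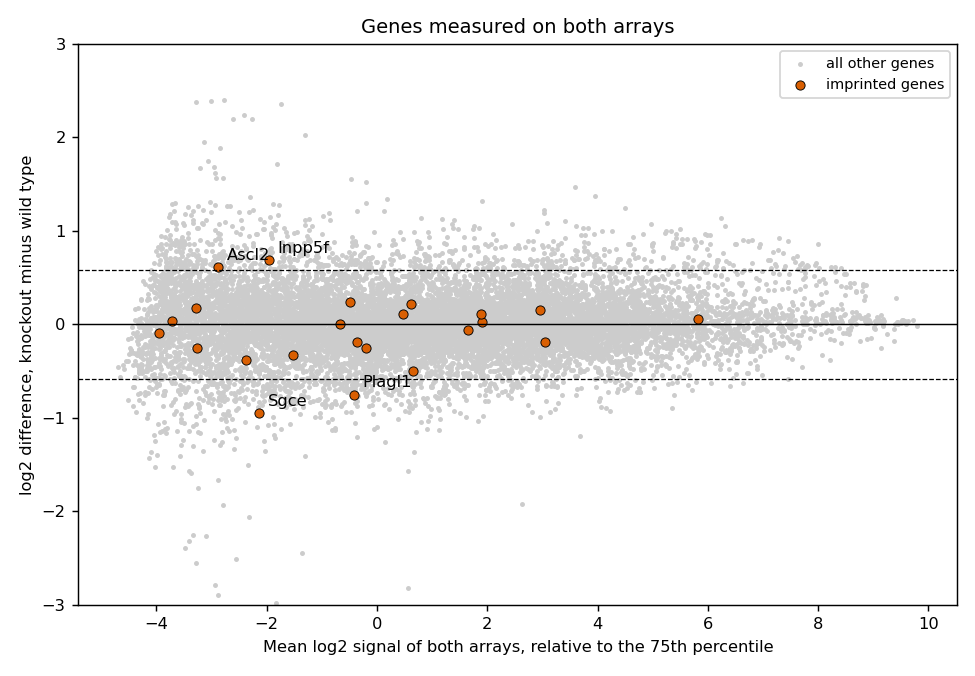
Each point is a gene measured on both arrays, with the mean log2 signal relative to the 75th percentile on the x axis and the log2 difference, knockout minus wild type, on the y axis; dashed lines mark 1.5-fold, and 4 genes lie outside the y axis, which ends at 3. The 23 imprinted genes lie within the cloud of all genes, and 4 of them are past a dashed line.

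Promoter windows of 300 bases, 250 before and 50 after the RefSeq transcription start (build GRCm38.p6), were found for 32 of the genes, with 51 windows between them, some of them overlapping. They held a median of 16 CpGs, from 1 to 48, against 7 over all 32851 windows. The sequence TGCCGC, which the imprint-protecting zinc finger protein ZFP57 binds when its CpG is methylated, was searched on both strands. It occurred in 13 of the 51 windows (25.5%) and in 11.6% of all windows. The hexamer holds a CpG, and windows of like CpG content were not compared. Such a match is a description and not a site of binding.

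The promoters of the genes past 1.5-fold that have a window are printed first, followed by Igf2r, the gene with the most spots, and by Peg3 and Usp29, neighbours that start from 1 shared stretch. Each is written 5′ to 3′ on the strand of its gene, with CpGs in capitals.
Plagl1: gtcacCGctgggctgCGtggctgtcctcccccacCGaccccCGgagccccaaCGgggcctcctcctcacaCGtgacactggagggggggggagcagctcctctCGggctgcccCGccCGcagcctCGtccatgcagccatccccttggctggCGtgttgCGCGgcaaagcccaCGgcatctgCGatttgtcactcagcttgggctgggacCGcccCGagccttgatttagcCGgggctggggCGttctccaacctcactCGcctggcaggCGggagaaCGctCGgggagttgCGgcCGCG
Ascl2: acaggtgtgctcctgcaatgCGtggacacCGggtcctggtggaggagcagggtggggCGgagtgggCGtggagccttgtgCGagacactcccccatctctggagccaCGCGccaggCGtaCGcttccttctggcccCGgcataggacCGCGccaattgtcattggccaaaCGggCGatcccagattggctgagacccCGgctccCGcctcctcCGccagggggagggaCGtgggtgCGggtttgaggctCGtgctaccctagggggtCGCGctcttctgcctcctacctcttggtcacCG
Inpp5f: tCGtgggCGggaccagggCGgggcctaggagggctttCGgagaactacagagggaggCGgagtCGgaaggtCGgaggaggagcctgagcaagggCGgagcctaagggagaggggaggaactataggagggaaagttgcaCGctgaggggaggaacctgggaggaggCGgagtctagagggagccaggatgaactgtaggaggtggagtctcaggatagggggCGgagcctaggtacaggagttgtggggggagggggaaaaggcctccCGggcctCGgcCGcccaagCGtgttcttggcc
Igf2r: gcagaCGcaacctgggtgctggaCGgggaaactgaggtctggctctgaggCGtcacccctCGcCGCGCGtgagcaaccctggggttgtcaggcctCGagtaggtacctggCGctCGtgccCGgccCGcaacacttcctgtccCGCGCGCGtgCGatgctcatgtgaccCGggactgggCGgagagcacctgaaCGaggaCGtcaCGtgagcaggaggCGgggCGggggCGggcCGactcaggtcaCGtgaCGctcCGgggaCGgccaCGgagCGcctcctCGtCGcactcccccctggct
Peg3: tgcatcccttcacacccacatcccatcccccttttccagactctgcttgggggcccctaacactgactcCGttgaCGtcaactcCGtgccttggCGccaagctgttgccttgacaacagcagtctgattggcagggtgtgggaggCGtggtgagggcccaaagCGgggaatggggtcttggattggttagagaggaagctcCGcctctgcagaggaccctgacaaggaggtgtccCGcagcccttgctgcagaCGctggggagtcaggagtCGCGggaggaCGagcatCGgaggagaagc
Usp29: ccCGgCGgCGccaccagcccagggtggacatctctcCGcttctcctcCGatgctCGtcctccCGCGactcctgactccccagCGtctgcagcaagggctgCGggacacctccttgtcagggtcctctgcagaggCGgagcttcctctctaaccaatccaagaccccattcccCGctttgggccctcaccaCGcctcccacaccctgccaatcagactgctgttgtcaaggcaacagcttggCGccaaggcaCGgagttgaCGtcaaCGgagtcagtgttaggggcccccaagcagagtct
The window of Plagl1 is chr10:13090582-13090881 on the plus strand and holds 26 CpGs, with TGCCGC on the opposite strand at base 161. Ascl2 has chr7:142969215-142969514 on the minus strand with 23 CpGs, and Inpp5f has chr7:128611115-128611414 on the plus strand with 15. The Igf2r window, chr17:12769657-12769956 on the minus strand, holds 34 CpGs. The windows of Peg3, chr7:6730370-6730669 on the minus strand with 13 CpGs, and of Usp29, chr7:6730333-6730632 on the plus strand with 17, overlap by 263 bases and run in opposite directions. TGCCGC was found in the Plagl1 window and not in the other 5 printed windows. DNA methylation was not measured in these samples.

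Genes that act on growth come first. Plagl1, a paternally expressed zinc finger transcription factor that restrains cell growth, read 329 in the knockout and 565 in the wild type on its brightest probe. It was lower in the knockout by 1.68-fold, a difference of -0.75 (scanner error 0.21). Plagl1 has 3 further probes with the same accession, all well above background on both arrays. One read 252 in the knockout and 424 in the wild type, a difference of -0.72. Another read 196 in the knockout and 241 in the wild type, a difference of -0.27. The last read 154 in the knockout and 127 in the wild type, a difference of 0.32 (scanner error 0.22). The 4 probes of Plagl1 thus disagree: 2 lie past 1.5-fold on the lower side, 1 lies on that side within the threshold, and 1 lies on the higher side. With the median over the probes the difference of Plagl1 is -0.50 and no longer reaches 1.5-fold.

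Igf2r, the maternally expressed receptor that carries lysosomal enzymes and clears the growth factor IGF2, is the imprinted gene with the most measured spots. Its 10 spots read from 3928 to 4714 in the knockout, with a median of 4424, and from 4852 to 5550 in the wild type, with a median of 5182. The difference lay below 0 at 10 of 10 positions, between -0.33 and -0.13. Over 259 probes with at least 8 spots above background on both arrays, the median SD between spots was 0.07. The median absolute difference of all measured genes was 0.19. How many of those probes also had all spots on 1 side of 0 was not counted. For Igf2r the mean difference was -0.19. The SD over its single spots was 0.06, and the scanner error of their mean was 0.06, so these values are not like for like. These spots repeat 1 RNA sample per genotype, so their SD is that of the reading and not of mice. On this probe the difference was small, below 1.5-fold, and larger than its scanner error, which is lowered by averaging 10 spots. The median scanner error of all measured genes was 0.20, and a difference of -0.19 would lie within that.

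Ndn encodes necdin, a paternally expressed protein that holds back cell division in neurons. It read 96.6 in the knockout and 128.2 in the wild type, a difference of -0.38 (scanner error 0.22). Cdkn1c, the maternally expressed inhibitor of cyclin-dependent kinases also called p57, read 417 in the knockout and 486 in the wild type, a difference of -0.19 (scanner error 0.21). The adaptor Grb10, which dampens insulin and IGF receptor signalling, read 54.8 in the knockout and 66.4 in the wild type, a difference of -0.25 (scanner error 0.28). The differences of Cdkn1c and Grb10 are within their scanner error. Together, the 5 measured growth genes had a median of -0.25 and all 5 lay below 0, where 48.1% of all genes did. Of them 1, Plagl1, was lower by 1.5-fold, where 4.69% of all genes were. The largest other functional group, of mixed functions, had 8 measured genes, a median of -0.02 and 4 below 0. With so few genes and 1 array per genotype, these counts are a description and no shared shift is read from them.

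The other 3 growth genes were not well above background on either array. Igf2, the fetal growth factor, read 6.11 in the knockout and 6.59 in the wild type. Dlk1, a paternally expressed surface protein related to the Notch ligands, read 5.84 in the knockout and 6.92 in the wild type on its brighter probe. Phlda2, which restrains growth of the placenta, read 4.16 in the knockout and 5.88 in the wild type. Negative control spots had a median of 4.24 on the knockout array and 6.06 on the wild type array. The ligand Igf2 gave no signal above background in cultures where its receptor Igf2r was measured.

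**Figure D2:**
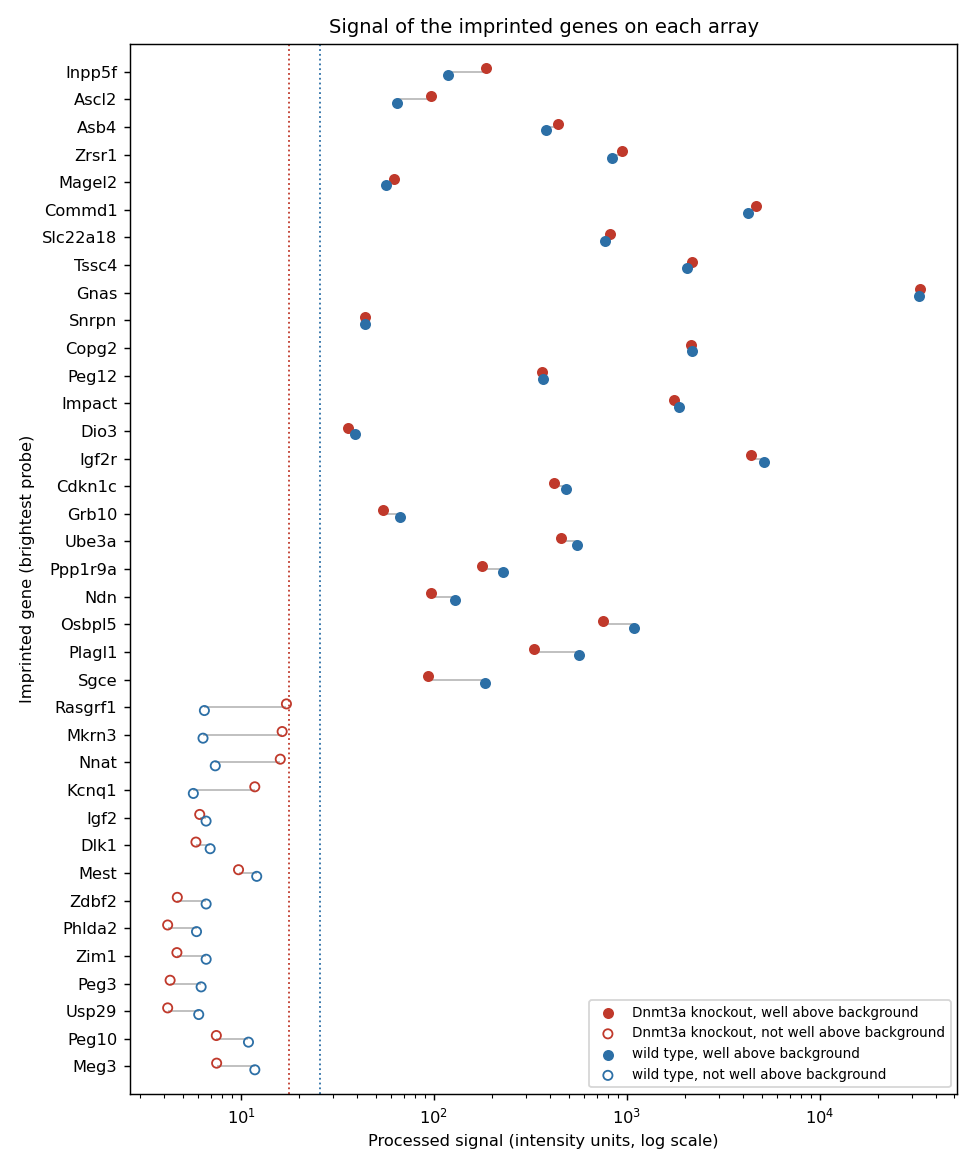
Processed signal (log axis) of the brightest probe of each of the 37 imprinted genes, Dnmt3a knockout in red and wild type in blue; open circles are not well above background and dotted lines mark the lowest probe above background on each array, 17.7 for the knockout and 25.8 for the wild type. Signals are to be read within a gene, since probes differ in brightness, and 14 genes are left of both lines.

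Around Sgce and Peg10, a pair that starts from a shared promoter region and is expressed from the paternal copy, 3 of the 4 listed genes were measured, with a median of -0.33. Sgce, which encodes the membrane glycoprotein epsilon-sarcoglycan, read 93.0 in the knockout and 184 in the wild type. It was lower in the knockout by 1.94-fold, a difference of -0.95 (scanner error 0.22), the lowest of the 23, and it rests on 1 probe with 1 spot. Peg10, a retrotransposon-derived gene needed in the placenta, was above background on neither array, with 7.45 in the knockout and 10.9 in the wild type on the brighter of its 2 probes. Ppp1r9a, which encodes the actin-binding protein neurabin, read 178 in the knockout and 229 in the wild type, a difference of -0.33 (scanner error 0.21), while its second probe was dim on both arrays. Asb4, a maternally expressed subunit of a ubiquitin ligase, read 441 in the knockout and 381 in the wild type, a difference of 0.24 (scanner error 0.21), with 0.16 on its other probe. The shared start of Sgce and Peg10 thus came with a measured signal for Sgce and none above background for Peg10.

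The stretch of chromosome 6 from Calcr to Asb4 was looked at in gene order, its ends being chosen after the values were seen. It has 14 genes with a probe, and 10 were measured, with a median of -0.28 and 7 below 0. Of the 10, 4 were lower by 1.5-fold, namely Sgce and 3 genes outside the list: Calcr at -0.84, Gng11 at -0.60 and Col1a2 at -0.70. None was higher by that fold, and over all genes 4.69% were lower and 5.82% higher, but nothing is read from these counts because the ends were chosen on the values. Calcr, the calcitonin receptor and an osteoclast marker, read 4136 in the knockout and 7576 in the wild type, and Col1a2, a collagen chain and stromal marker, read 23671 in the knockout and 39211 in the wild type. Calcr is a member of the osteoclast list (all 10 markers below 0, Acp5 at -0.00) and Col1a2 of the stromal list (13 of 16 below 0). The lists and the stretch thus share genes and are not separate observations. The part of cell types in the values of the stretch was not tested. Casd1, next to Sgce on 1 side, differed by -0.22, and Ppp1r9a, next on the other side among measured genes, by -0.33.

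In the Kcnq1 domain of chromosome 7, where the noncoding RNA Kcnq1ot1 from the paternal copy silences its neighbours, 5 of the 7 listed genes were measured, with a median of 0.11. Ascl2, a basic helix-loop-helix transcription factor of trophoblast and of intestinal stem cells, read 96.2 in the knockout and 64.1 in the wild type. It was higher in the knockout by 1.53-fold, a difference of 0.62 (scanner error 0.26), just past the threshold, and fell short of it under quantile normalization (0.55) and normexp background correction (0.29). Osbpl5, a lipid transfer protein of the oxysterol-binding family, read 754 in the knockout and 1084 in the wild type, a difference of -0.49 (scanner error 0.20), just short of it on the lower side. The domain thus held differences of both signs.

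The transporter-like gene Slc22a18 read 821 in the knockout and 774 in the wild type, a difference of 0.12, and Tssc4 read 2183 in the knockout and 2064 in the wild type, a difference of 0.11, both within scanner error. Cdkn1c, given above with the growth genes, differed by -0.19. Kcnq1, a potassium channel subunit, was above background on neither array, with 11.8 in the knockout and 5.66 in the wild type, as was Phlda2. All of these rest on 1 probe each.

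Further imprinted genes of this domain, from a second list of 50 imprinted genes, include the antisense RNA itself. Kcnq1ot1 read 227 in the knockout and 142 in the wild type, a difference of 0.71 (scanner error 0.22). Tspan32, a tetraspanin of blood cells next to Ascl2, read 2982 in the knockout and 1682 in the wild type, a difference of 0.86, with 0.97 and 0.69 on its other probes. Cd81, another tetraspanin, differed by 0.55, Th by 0.08, Dhcr7 by 0.07, Tnfrsf23 by -0.11 and Nap1l4 by -0.17, while Trpm5 was above background on neither array. From Ins2 to Dhcr7, ends again chosen after the values were seen, 19 of 23 genes were measured, with a median of 0.07 and 10 above 0. Ascl2, Tspan32 and Kcnq1ot1 were higher by 1.5-fold, and Ins2, with 321 in the knockout and 498 in the wild type, was lower, a difference of -0.60. Over all genes 5.82% were higher and 4.69% lower, and as the ends were chosen on the values, nothing is read from these counts. Kcnq1ot1 lay above 0, and the protein-coding genes of the domain lay on both sides of it. As the arrays do not tell the parental copies apart, nothing about silencing is read from this. Whether the Kcnq1ot1 probe also reads RNA of Kcnq1, in which the antisense gene lies, was not tested.

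**Figure D3:**
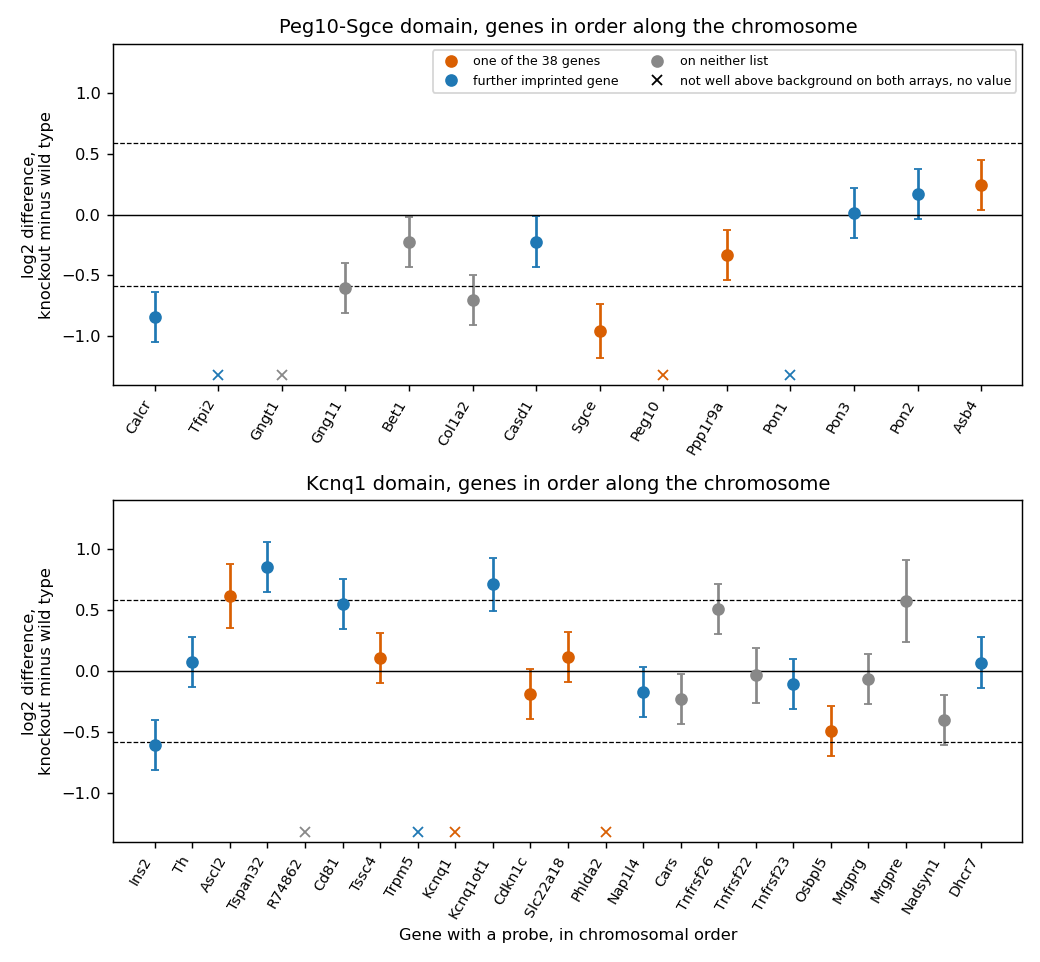
Log2 difference, knockout minus wild type, with scanner error bars, for genes in chromosomal order (not to scale) in the Peg10-Sgce stretch above and the Kcnq1 stretch below; crosses at the bottom mark genes without a value and dashed lines 1.5-fold. In the upper panel 7 of 10 measured genes lie below 0, and in the lower panel 10 of 19 lie above it.

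Inpp5f encodes an inositol phosphatase, and only a short transcript of it is known to be imprinted, from the paternal copy in brain. Its single probe read 186 in the knockout and 118 in the wild type, and it was higher in the knockout by 1.61-fold, a difference of 0.69 (scanner error 0.22), the highest of the 23. Under normexp correction it was 0.57, just short of 1.5-fold. Which transcript the probe reads was not analysed here. The spot lies at row 88, in the upper block of the array, where 12.3% of genes were past 1.5-fold in either direction, against 9.6% elsewhere. The measured neighbours Bag3 and Mcmbp, chosen for their place after the values were seen, differed by -0.01 and 0.04. Those of Plagl1, Sf3b5 and Ltv1, differed by 0.09 and -0.21. Inpp5f, Plagl1 on its brightest probe and Sgce, whose neighbours are given above, differed by more than the measured gene on either side. These genes were picked for being past 1.5-fold, which few genes are, so this was likely beforehand and nothing is read from it. Ascl2 at 0.62 did not, its neighbour Tspan32 differing by 0.86. Other probes of Plagl1 included differences of -0.27 and 0.32.

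Gnas, the gene of the stimulatory G protein alpha subunit, is imprinted in a way that depends on transcript and tissue. Its brightest probe read 33067 in the knockout and 32553 in the wild type, a difference of 0.05 (scanner error 0.20). A second probe, matched to another transcript, read 36.4 in the knockout and 45.7 in the wild type, a difference of -0.30 (scanner error 0.31). The third read 60.8 in the knockout, well above background, and 6.02 in the wild type, not well above it. Set against the lowest probe above background on the wild type array, at 25.8, it was 2.40-fold higher in the knockout. That is not a strict bound, since probes not well above background can read higher, such as Mirg at 31.8 in the wild type. This Gnas probe is 1 spot, at row 63. By the same rule 0.518% of the 27224 named probes were above background on the knockout array alone and at least 2-fold higher. Of all named probes 5.58% were above background on the knockout array alone and 0.801% on the wild type array alone. Gnas was thus near 0 on its brightest probe, and its 3 probes did not read alike.

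**Figure D4:**
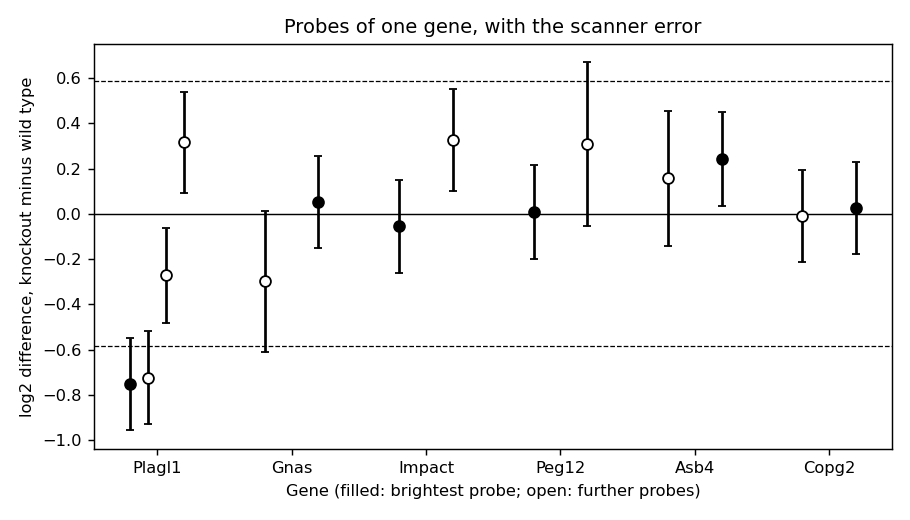
Log2 difference, knockout minus wild type, with scanner error bars, for each probe of the 6 imprinted genes that have several probes measured on both arrays; the filled point is the brightest probe and dashed lines mark 1.5-fold. The 4 probes of Plagl1 run from -0.75 to 0.32, while those of Copg2 differ by less than their errors.

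In the Snrpn-Ube3a domain of chromosome 7, known from Prader-Willi and Angelman syndromes, 5 of 6 listed genes were measured, with a median of 0.01. Ube3a, the ubiquitin ligase whose maternal copy is the active one in neurons, read 456 in the knockout and 555 in the wild type, a difference of -0.25 (scanner error 0.20). Snrpn, a spliceosomal protein gene, read 43.9 in the knockout and 43.8 in the wild type, a difference of 0.03 (scanner error 0.33), and its 2 other probes were dim on both arrays. Peg12, of the Frat family that binds the kinase GSK3, read 362 in the knockout and 367 in the wild type, a difference of 0.01, with 0.31 on a dimmer probe (scanner error 0.36). None of these reached 1.5-fold.

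Magel2, which steers a ubiquitin ligase in endosomes, read 62.4 in the knockout and 56.3 in the wild type, a difference of 0.18 (scanner error 0.27). Mkrn3, a zinc finger protein tied to the timing of puberty in humans, was above background on neither array, with 16.3 in the knockout and 6.35 in the wild type. Apart from Ndn and Ube3a, the measured genes of this domain differed by less than their scanner errors.

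Zrsr1 lies within an intron of Commd1, and the pair is listed under opposite parental copies. Which copies these cells express was not measured. Zrsr1, a splicing factor gene expressed from the paternal copy, read 949 in the knockout and 833 in the wild type, a difference of 0.22. Commd1, which acts in copper balance and on NF-kappaB, read 4656 in the knockout and 4268 in the wild type, a difference of 0.16. Both had a scanner error of 0.20 and lay on the same side of 0. Copg2, a coatomer subunit gene next to Mest, read 2164 in the knockout and 2169.8 in the wild type, a difference of 0.03, with -0.01 on its other probe. Mest itself, a paternally expressed hydrolase-like gene, was dim on both arrays at all 9 unmarked spots of its repeatedly spotted probe, with 9.71 in the knockout and 12.1 in the wild type.

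Impact, which inhibits the stress kinase GCN2, read 1759 in the knockout and 1866 in the wild type, a difference of -0.06 (scanner error 0.20). Its second probe read 111 in the knockout and 90.4 in the wild type, a difference of 0.33 (scanner error 0.23), so the probes of Impact lay on opposite sides of 0. Dio3, the enzyme that inactivates thyroid hormone, read 35.7 in the knockout and 38.9 in the wild type, a difference of -0.09 (scanner error 0.31).

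The genes above background on neither array include several known from placenta, embryo and brain. Besides Igf2, Dlk1, Phlda2, Peg10, Kcnq1, Mkrn3 and Mest they were the noncoding RNA Meg3, the zinc finger genes Peg3, Zim1 and Zdbf2, the protease gene Usp29, the neuronal gene Nnat and the Ras exchange factor gene Rasgrf1. Meg3 read 7.47 in the knockout and 11.8 in the wild type. Peg3 read 4.29 in the knockout and 6.21 in the wild type, and Usp29, which shares its promoter stretch, read 4.17 in the knockout and 6.03 in the wild type. Zim1 read 4.65 in the knockout and 6.60 in the wild type, and Zdbf2 read 4.67 in the knockout and 6.59 in the wild type. Apart from Meg3, these values lay near the medians of the negative controls of their own arrays.

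Some dim probes read higher on the knockout array without being well above background there, while the second probe of the same gene read lower. Nnat read 16.0 in the knockout and 7.35 in the wild type on 1 probe, and 7.56 in the knockout and 10.3 in the wild type on the other. Rasgrf1 read 17.2 in the knockout and 6.46 in the wild type on 1 probe, and 3.96 in the knockout and 5.71 in the wild type on the other. The second probe of Mkrn3 read 4.47 in the knockout and 6.39 in the wild type. Dim probes of the listed genes ran from 3.96 to 17.2 in the knockout and from 5.53 to 12.1 in the wild type, so no fold is given for them. All 3 listed genes of the Peg3 domain were above background on neither array, and Meg3, the 1 listed noncoding RNA with a probe, gave no measured value.

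Grouped by the copy usually expressed, 9 of 19 paternally expressed genes were measured, with a median of -0.06, 0 higher and 2 lower by 1.5-fold. Of 17 maternally expressed genes 12 were measured, with a median of -0.08, 1 higher and 0 lower, where 5.82% of all genes were higher and 4.69% lower. Both medians are within 0.1 of the 0.01 of all genes. Genes above background on neither array numbered 10 of the 19 paternally expressed genes and 4 of the 16 maternally expressed genes with a probe. Of all 20654 named genes 13479 were above background on both arrays. Their share on neither array is not given here, so nothing is read from these counts. The genes past 1.5-fold in each group were Sgce and Plagl1 among the paternally expressed genes and Ascl2 among the maternally expressed ones.

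**Figure D5:**
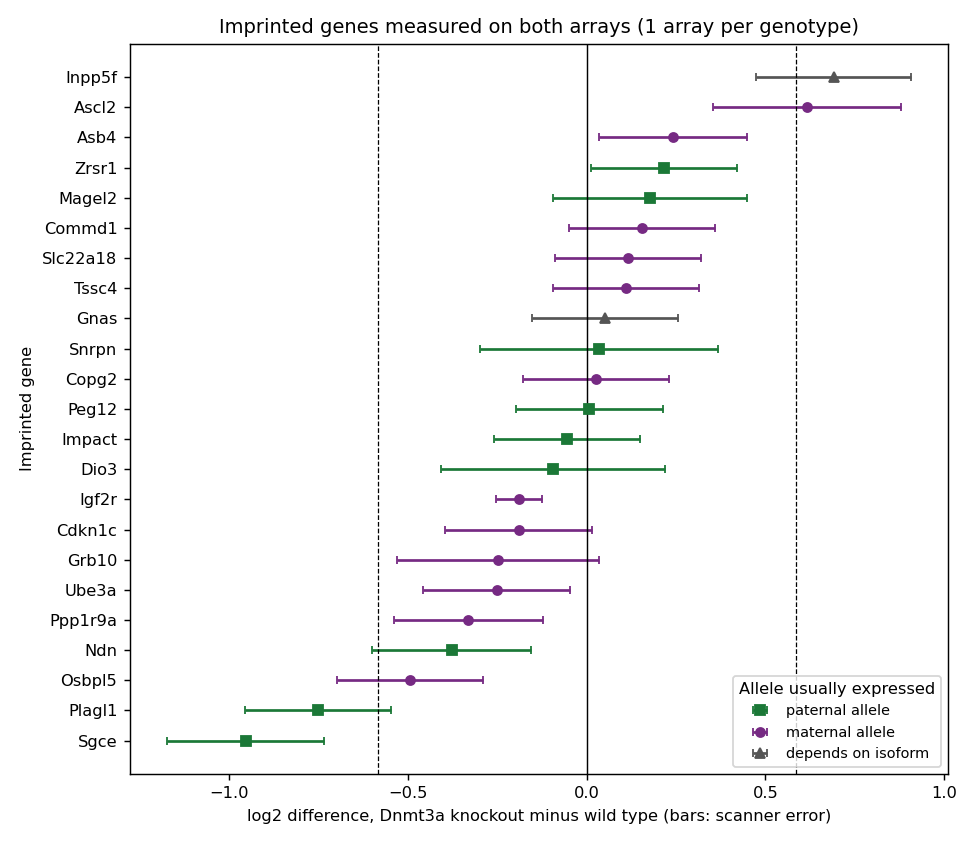
Log2 difference, knockout minus wild type, of the 23 imprinted genes measured on both arrays, 1 array per genotype, with scanner error bars; squares are paternally expressed, circles maternally expressed and triangles depend on isoform, and dashed lines mark 1.5-fold. Squares and circles lie on both sides of 0, with Sgce at -0.95 and Inpp5f at 0.69 as the extremes.

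Of the 50 genes of the second imprinted list 43 had a probe and 28 were measured, with a median of -0.04, 3 higher and 4 lower by 1.5-fold, where 5.82% and 4.69% of all genes were. Outside the domains above, Htr2a, a serotonin receptor, read 28.4 in the knockout and 200.01 in the wild type, a difference of -2.79 (scanner error 0.32) on 1 spot at row 22. Smoc1, a matrix protein gene, read 156 in the knockout and 244 in the wild type, a difference of -0.62. Gatm, an enzyme of creatine synthesis, read 247 in the knockout and 165 in the wild type, a difference of 0.61. Airn, the antisense RNA of Igf2r, differed by -0.06. Blcap, which surrounds Nnat, differed by 0.49, Zim3 by -0.32, Casd1 by -0.22, Pon2 by 0.17, Pon3 by 0.01 and Dlx5 by -0.32. On the knockout array Tfpi2 of the Peg10-Sgce stretch was not well above background at 19.7, while it was on the wild type array at 42.8. Slc38a4, an amino acid transporter gene outside these domains, named after its values were seen, was likewise above background on the wild type array alone, with 11.6 in the knockout and 36.9 in the wild type. Mirg and Atp10a were above background on the knockout array alone, Mirg with 41.4 in the knockout and 31.8 in the wild type and Atp10a with 35.4 in the knockout and 22.7 in the wild type. Pon1, Klf14, Slc22a2, Slc22a3, Rtl1, Begain, Cobl and Ddc of the domains above were above background on neither array.

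A list of 26 genes tied to setting, keeping or removing imprints, with Tet1, Tet2 and Tet3 among them, had 24 measured genes. Their median was -0.06, with 1 higher and 1 lower by 1.5-fold, where 5.82% of all genes were higher and 4.69% lower. The lower one was Dnmt3a itself, and the next lowest was Uhrf1, the partner of Dnmt1, at -0.32. The higher one was Dppa3, which protects methylation in the early embryo, with 643 in the knockout and 435 in the wild type, a difference of 0.60 on a spot at row 6, followed by Ehmt2 at 0.23.

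Among 22 genes of IGF signalling, where Igf2, Igf2r and Grb10 act, 19 were measured, with a median of 0.03, 2 higher and 3 lower by 1.5-fold, where 5.82% of all genes were higher and 4.69% lower. The binding protein gene Igfbp4 read 2269 in the knockout and 1323 in the wild type, a difference of 0.81, and the transcription factor gene Foxo3 read 77.95 in the knockout and 52.1 in the wild type, a difference of 0.61. The binding protein gene Igfbp5 read 59.96 in the knockout and 135 in the wild type, a difference of -1.14, and the insulin receptor substrate gene Irs1 read 132 in the knockout and 284 in the wild type, a difference of -1.07. A further binding protein gene, Igfbp7, read 91.1 in the knockout and 162 in the wild type, a difference of -0.80.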

How the data were processed

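The deposited scanner files hold 1-colour spot intensity from Agilent Feature Extraction 10.10.1.1, background-subtracted and detrended within the array, per the file headers. The submitters' processing notes name version 9.1, and which one made the files was not settled. Here each array was scaled to the 75th percentile of its 59305 non-control spots (572 for the knockout, 584 for the wild type), and log2 values of a probe's spots were averaged. Spots marked as uneven or outlying were left out (172 in the knockout, 157 in the wild type), and no spot was saturated. Accessions named 27224 of 55649 probes (48.9%) through RefSeq, GRCm38.p6. The brightest probe stands for its gene, and a gene is measured when most of its spots are well above background on both arrays. The deposited value table is the same intensity times a factor near 1.54 for the knockout and 1.55 for the wild type, on a linear scale and neither centred nor turned into ratios, with column medians of 66.5 for the knockout and 59.6 for the wild type. How its factor was chosen is not known.

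Named genes were the 38 listed ones, and from 3 further lists and the marker lists those in a listed gene's domain, past 1.5-fold or at the extremes. Others are said to be chosen after their values were seen. The members, lists and thresholds were chosen with earlier results of these data known. The normexp alternative (limma 3.58.1, offset 50) used the median spot signal in place of the planned mean signal. Calculations used Python 3.11.15 and pandas 2.3.3, and were tested on simulated data. Repeated spots of 259 probes had a median SD of the log2 difference of 0.07. The number of arrays limits the precision.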

Additional observations from a re-analysis of the deposited data

How the results depend on the processing

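Nothing in these data estimates the spread between mice or cultures, and no replicate could be left out. No paired analysis was possible because each genotype has 1 array. Spike-in scaling, resting on 8 probes whose shift ran from 0.30 to 0.74, moved all genes down: the median of the imprinted genes became -0.52, 0 were higher and 10 lower by 1.5-fold, and over all genes 66 were higher and 5325 lower, so that 1.22% of the calls were higher in place of 55.4%. Quantile normalization left 1 imprinted gene higher, Inpp5f, and put 44.5% of all calls on the higher side. Normexp background correction left 0 imprinted genes higher (Ascl2 at 0.29, Inpp5f at 0.57), with 491 genes higher and 291 lower overall. With no filter on dim probes 6 imprinted genes were higher, and over all genes 2565 were higher and 1217 lower (67.8% of calls higher). The median over probes left 1 imprinted gene lower, Sgce. Without the upper block of array rows the spot of Inpp5f is lost and 1 imprinted gene, Ascl2, was higher, with 543 genes higher and 418 lower overall among 9911 measured genes in place of 13479, so that 4.22% were lower in place of 4.69%. Over the alternatives Sgce ran from -1.48 to -0.66, Plagl1 from -1.28 to -0.50, Ascl2 from 0.09 to 0.62 and Inpp5f from 0.16 to 0.70. Apart from the smaller number of genes without that block, the causes were not tested.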
